A study of Mus musculus with 8 samples.

Results

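Doublecortin (Dcx), the homeobox genes Dlx1, Dlx2, Dlx5 and Dlx6, the SoxC genes Sox4 and Sox11, the beta-tubulin gene Tubb3 and the stathmin gene Stmn2 were followed in sorted striatal neurons of R6/2 mice and their controls. These 9 genes, grouped as genes of neuroblasts and immature neurons, are among 34787 gene and transcript names on the array, and every non-control probe that carries one of the 9 names was taken. They have 15 of the 55681 non-control probes. The genes were selected on earlier results of the same contrast, the processed intensities of R6/2 against control arrays, so their differences between the groups are given as a description, with no p-value.

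The series measured RNA of medium spiny neurons (MSNs), which project out of the striatum and release GABA, on mouse Agilent arrays with 1 dye. Of the 8 arrays, 4 were of R6/2;Scn4b-Venus males and 4 of WT;Scn4b-Venus males, called control here, all aged 4 weeks. R6/2 mice, a model of Huntington's disease, carry the human HTT promoter and first exon with an expanded stretch of CAG, and this transgene is active in many tissues and not only in MSNs. Both groups carry the Scn4b-Venus reporter, in which the fluorescent protein Venus marks cells that use the sodium channel gene Scn4b, and cells positive for Venus and negative for the dead-cell dye propidium iodide were sorted. The labels do not say whether the 4 arrays of a group come from separate mice, so p-values measure the spread between these samples, which may be technical.

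Neuroblasts born in the ventricular zones next to the striatum become neurons in steps. DLX homeodomain proteins start and hold the GABAergic programme of subpallial cells, and the SoxC proteins SOX4 and SOX11 then switch on genes of the neuronal cytoskeleton, Dcx and Tubb3 among them. DCX and STMN2 act on the microtubules of migrating and growing neurons, DCX by stabilising them and STMN2 by loosening them at the growth cone. Dcx is shut down as most neurons mature, whereas Tubb3 stays on in mature neurons.

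Levels are log2 intensities relative to the 75th percentile of the same array, so 0 is the level of that percentile and 1 unit is a doubling. Between 74.0% and 78.8% of probes were well above background on R6/2 arrays, against 50.2% to 76.2% on control arrays, with control replicate 1 the lowest. The second slide held R6/2 replicate 4 and no other array, so slide and genotype cannot be told apart for it. All 22 MSN markers and all 20 mature neuron genes examined were well above background on all 8 arrays. The marker of the sort itself, Scn4b, averaged 5.12 ± 0.43 in R6/2 and 6.27 ± 0.38 in control (SD, n = 4 each), a difference of -1.15 with limma's adjusted p = 0.552, and whether the gate took the same cells in both groups was not tested.

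As a group, the 9 genes did not lie to one side. With each gene represented by its probe of highest mean level, 5 had a positive difference (R6/2 minus control) and 4 a negative one, from +1.18 in Dcx to -1.16 in Dlx1. Their median was 0.11, beside a median of 0.03 over all 26930 genes represented in the same way, of which 54.0% were positive. Well above background on at least 4 arrays were all 15, and on all 8 arrays 13 of them, and 0 were saturated on any array. None of the 15 passed limma's test over all 41394 probes tested at an adjusted p of 0.05, beside 0.00242% of all probes. Groups that did not overlap were seen in 1 of the 15 probes, beside 4.57% of all probes tested (2.31% with R6/2 higher and 2.26% with R6/2 lower). With 1 probe per gene it was 1 of the 9 genes, beside 4.73% of all genes. In a sorted bulk sample, more cells that use a gene and more of its RNA per cell cannot be told apart.

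Dcx, the microtubule-binding protein of migrating neurons, had the largest positive difference. Its 3 probes lie on the minus strand of chromosome X (mm9), the first and the second 444 bases apart and the second and the third 5039 bases apart. The probes of a gene are numbered here from the highest mean level down. By annotation, Dcx probe 1 belongs to a RefSeq transcript of the gene and Dcx probes 2 and 3 to another. Of the 60 bases of a probe, 30 are shown here and for the other genes, and the 3 Dcx probes are given because the size of the difference varied between them.
Dcx probe 1, A_55_P2080126, chrX:140296367-140296396, minus strand: aactcaacatgaattgatgacaacttggtg
Dcx probe 2, A_52_P506493, chrX:140295923-140295952, minus strand: tcccatgttgtcccaagtattcatttaaga
Dcx probe 3, A_52_P244349, chrX:140290884-140290913, minus strand: ataaaaagaaaagcaaaacagagatgtgcg
Dcx probe 1 read 1.34, 2.34, 1.73 and 2.03 in R6/2 replicates 1 to 4, against 0.87, 0.44, 0.60 and 0.80 in control replicates 1 to 4. Every R6/2 array was above every control array, and no other of the 15 probes separated the groups in this way. The means were 1.86 ± 0.43 in R6/2 and 0.68 ± 0.19 in control (SD, n = 4 each), a difference of +1.18 ± 0.26 (SE) or 2.27-fold.

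The other Dcx probes had differences of the same sign and groups that overlapped. Dcx probe 2 read 0.64, 1.42, 0.76 and 1.16 in R6/2, against -0.03, 0.17, 0.22 and 0.94 in control, a difference of +0.67 ± 0.28. Control replicate 4 reached into the R6/2 range, and the other control arrays lay below it. Dcx probe 3 was dim, at -2.36, -2.06, -2.42 and -2.07 in R6/2 and -3.78, -4.08, -1.42 and -2.65 in control, where 3 of 4 arrays were well above background. Its difference of +0.76 ± 0.54 came with a control SD of 1.21, against 0.19 in R6/2. Control replicate 3 was higher there than every R6/2 array, and the other control arrays were lower. In probes 1 and 2, R6/2 replicate 2 was the highest of all 8 arrays, followed by R6/2 replicate 4. With any 1 array left out, the difference of Dcx probe 1 ran between 1.02 and 1.36 and that of Dcx probe 2 between 0.53 and 0.87. That of Dcx probe 3 ran from 0.39 without control replicate 2 to 1.28 without control replicate 3, and it was 0.20 with normexp background and quantile scaling.

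**Figure D1:**
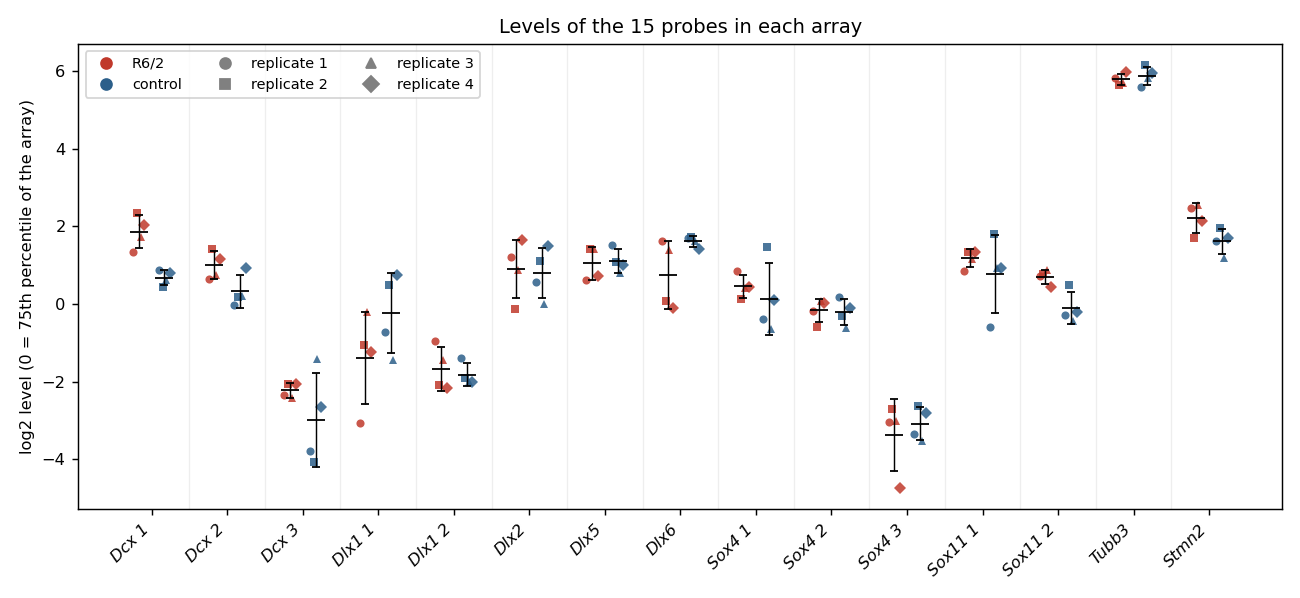
Log2 level of each of the 15 probes (0 is the 75th percentile of the array) in the 4 R6/2 arrays (red, left) and the 4 control arrays (blue, right), with marker shape for the replicate, a dash for the group mean and bars for the SD. Dcx 1 is the only probe whose groups do not overlap, and the 4 R6/2 arrays of Dlx6 split into a high and a low pair.

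Stmn2 encodes the growth-cone stathmin that binds tubulin dimers and loosens microtubules. It has 1 probe, on the plus strand of chromosome 3 (mm9), and the stretch shown holds AATAAA (in capitals), the hexamer of the polyadenylation signal.
Stmn2, A_55_P2068673, chr3:8561567-8561596, plus strand: caagctgtgatgAATAAAgaattggagttc
Stmn2 read 2.47, 1.69, 2.56 and 2.13 in R6/2, against 1.62, 1.96, 1.19 and 1.71 in control. R6/2 replicates 1, 3 and 4 lay above all control arrays, and R6/2 replicate 2 lay among them. The means were 2.21 ± 0.39 in R6/2 and 1.62 ± 0.32 in control (SD, n = 4 each), a difference of +0.59 ± 0.27 (SE) or 1.51-fold. The array that was highest for Dcx, R6/2 replicate 2, was thus the lowest R6/2 array for Stmn2.

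Tubb3 encodes the neuron-specific beta-tubulin, a building block of the microtubules themselves. It read 5.82, 5.65, 5.69 and 5.97 in R6/2, against 5.58, 6.15, 5.82 and 5.95 in control. The R6/2 arrays all lay within the control range, and the difference was -0.09 ± 0.20. With 1 array left out at a time, the difference of Tubb3 ran between -0.19 and 0.00241. Its probe, on the plus strand of chromosome 8 (mm9), holds the same hexamer.
Tubb3, A_55_P2041828, chr8:125945872-125945901, plus strand: aggggtatacttAATAAAgttactgctgtc
Read on the probe's strand alone, AATAAA was found in 3 of the 15 probes of these genes, and in 10.1% of the 55681 non-control probes. The third was the second probe of Sox11.

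The 4 Dlx genes lie as 2 convergent pairs, Dlx1 with Dlx2 on chromosome 2 and Dlx5 with Dlx6 on chromosome 6. Their proteins bind DNA through a homeodomain and act in subpallial progenitors, in migrating neuroblasts and in some mature GABAergic neurons. None of the 4 had groups that did not overlap, and within both pairs the genes differed in the sign or the size of their difference.

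Dlx6, which acts with Dlx5 late in GABAergic differentiation, is measured by 1 probe on the plus strand of chromosome 6 (mm9), shown because its R6/2 arrays fall into a high and a low pair.
Dlx6, A_52_P556908, chr6:6815092-6815121, plus strand: acagtgatcgaaaacggggaaatcaggttc
Dlx6 read 1.63, 0.08, 1.39 and -0.11 in R6/2, against 1.70, 1.73, 1.63 and 1.41 in control. R6/2 replicates 2 and 4 lay far below every control array, R6/2 replicate 3 just below them, and R6/2 replicate 1 among them. The means were 0.75 ± 0.89 in R6/2 and 1.62 ± 0.14 in control (SD, n = 4 each), a difference of -0.87 ± 0.41 (SE), or 1.83-fold lower in R6/2. The control SD of Dlx6 was the smallest of the 15 probes. The difference ran from -1.16 without R6/2 replicate 1 to -0.59 without R6/2 replicate 4.

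Dlx5, the convergent neighbour of Dlx6, is a homeodomain factor of GABAergic cells and of bone. It read 0.62, 1.43, 1.41 and 0.72 in R6/2, against 1.53, 1.09, 0.79 and 1.01 in control, a difference of -0.06 ± 0.28. Here R6/2 replicates 2 and 3 were the high ones, whereas R6/2 replicates 1 and 3 were high in Dlx6. Of the noncoding transcripts of the same locus, Dlx6os1 had a difference of -0.35 ± 0.39 and Dlx6os2 one of +0.26 ± 0.27, both with groups that overlapped. Dlx6os2 and Dlx1as were added after their values had been seen.

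Dlx1, a regulator of interneuron migration and survival, has 2 probes on the plus strand of chromosome 2 (mm9), 4088 bases apart, that the files assign to different transcripts, probe 1 to the RefSeq mRNA of the gene and probe 2 to an Ensembl transcript. Both stretches are shown, since they gave differences of opposite sign.
Dlx1 probe 1, A_52_P464831, chr2:71371499-71371528, plus strand: gttgtcaaaaacgtttggacaagaacacct
Dlx1 probe 2, A_55_P1973623, chr2:71367411-71367440, plus strand: cgcgactccgcgatccagagaccgcggccg
Dlx1 probe 1 read -3.05, -1.07, -0.22 and -1.23 in R6/2, against -0.72, 0.50, -1.43 and 0.75 in control. Its difference of -1.16 ± 0.68 had the largest standard error of the 15 probes, and both groups were wide, with an SD of 1.19 in R6/2 and 1.03 in control. R6/2 replicate 1 lay below all other arrays, and without it the difference was -0.61. Dlx1 probe 2 read -0.97, -2.10, -1.44 and -2.16 in R6/2, against -1.39, -1.90, -2.001 and -2.02 in control, a difference of +0.16 ± 0.31. R6/2 replicate 1, the lowest array for probe 1, was the highest for probe 2, and without it the difference of probe 2 was -0.07, so that the opposite sign rests on this array. The antisense transcript Dlx1as had a difference of -0.29 ± 0.56, and 3 of its 4 control arrays were well above background.

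Dlx1 probe 2 is found in the 250 bases before the RefSeq start of Dlx1, from 91 to 32 bases before it, on the strand of the gene. It is the probe richest in G and C of the 15, at 73.3%, against a median of 43.3% over all non-control probes. The 250 bases are shown with the probe in capitals, from RefSeq on GRCm38.p6, a later build than that of the probe coordinates.
Dlx1 upstream, GRCm38.p6 chr2:71529195-71529444, plus strand: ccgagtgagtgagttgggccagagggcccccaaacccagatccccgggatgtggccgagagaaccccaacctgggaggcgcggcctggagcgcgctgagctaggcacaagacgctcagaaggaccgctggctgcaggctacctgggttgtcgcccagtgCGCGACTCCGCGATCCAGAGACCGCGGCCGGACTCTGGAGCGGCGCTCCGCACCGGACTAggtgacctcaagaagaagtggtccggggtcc

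Dlx2, which overlaps Dlx1 in its use in progenitors, read 1.21, -0.13, 0.87 and 1.65 in R6/2, against 0.57, 1.11, 0.00202 and 1.49 in control. The groups overlapped nearly throughout, and the difference was +0.11 ± 0.45. Its sign changed when R6/2 replicate 4 or control replicate 3 was left out, at -0.14 and -0.16. Among R6/2 arrays the lowest was replicate 1 for Dlx1 and Dlx5, replicate 2 for Dlx2 and replicate 4 for Dlx6, so no single R6/2 array was low in all 4 genes. The paralogues Dlx3 and Dlx4, which belong mainly to other tissues, had differences of +0.13 ± 0.32 and +0.87 ± 0.47, and Dlx4 was well above background on 3 R6/2 arrays and 1 control array.

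**Figure D2:**
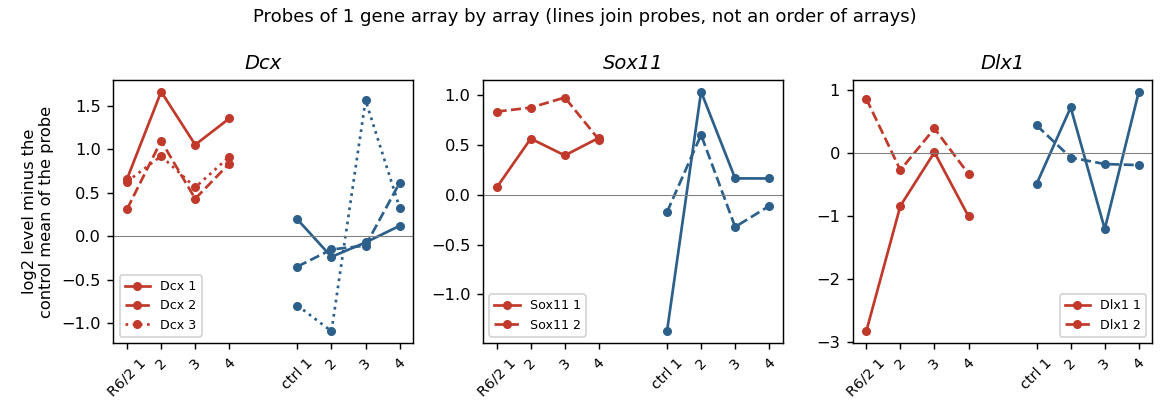
Log2 level of each probe of Dcx, Sox11 and Dlx1 relative to that probe's control mean, in R6/2 replicates 1 to 4 (red) and control replicates 1 to 4 (blue); lines join the readings of a probe. The 3 Dcx probes lie above 0 in all 4 R6/2 arrays, and the 2 Dlx1 probes part in R6/2 replicate 1.

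Sox11, a SoxC factor that activates Dcx in mouse adult-born neurons, has 2 probes 546 bases apart on the minus strand of chromosome 12 (mm9), which start at bases 7983 and 7437 of its transcript per the files. AATAAA, in capitals, lies in the second.
Sox11 probe 1, A_52_P160955, chr12:28019571-28019600, minus strand: aaccattctgtattgaaactcttgctataa
Sox11 probe 2, A_55_P2094721, chr12:28020088-28020117, minus strand: gttcaaaagaccAATAAAaatcgtgtgatc
Sox11 probe 1 read 0.85, 1.34, 1.17 and 1.35 in R6/2, against -0.60, 1.81, 0.94 and 0.94 in control, a difference of +0.40 ± 0.46. The R6/2 arrays were close together with an SD of 0.23, and the control arrays were spread with an SD of 1.001, replicate 1 below and replicate 2 above all R6/2 arrays. Sox11 probe 2 read 0.73, 0.77, 0.87 and 0.45 in R6/2, against -0.28, 0.50, -0.43 and -0.22 in control, a difference of +0.81 ± 0.25 or 1.76-fold. Only control replicate 2 reached into the R6/2 range there. Without control replicate 1 the differences were -0.05 for probe 1 and +0.76 for probe 2, and without control replicate 2 they were +0.75 and +1.01, so that the sign of probe 1 rests on control replicate 1.

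Sox4, the SoxC partner of Sox11, has 3 probes along its transcript on chromosome 13, 2030 and 1626 bases apart. Sox4 probe 1 (A_55_P2121608) read 0.84, 0.12, 0.41 and 0.43 in R6/2, against -0.39, 1.46, -0.64 and 0.10 in control, a difference of +0.32 ± 0.44. As in Sox11 probe 1, control replicate 2 was above all R6/2 arrays, and the control SD of 0.94 exceeded the R6/2 SD of 0.30. Sox4 probe 2 (A_55_P2121613) had a mean of -0.17 ± 0.31 in R6/2 and -0.21 ± 0.33 in control, a difference of +0.05 ± 0.25. Sox4 probe 3 (A_55_P2131899) was dim and well above background on 3 arrays of each group, with a difference of -0.29 ± 0.46. Its R6/2 replicate 4 read -4.74, and without that array the difference was +0.16. Without control replicate 2 the difference of Sox4 probe 1 was +0.76, and without control replicate 3 it was +0.06.

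**Figure D3:**
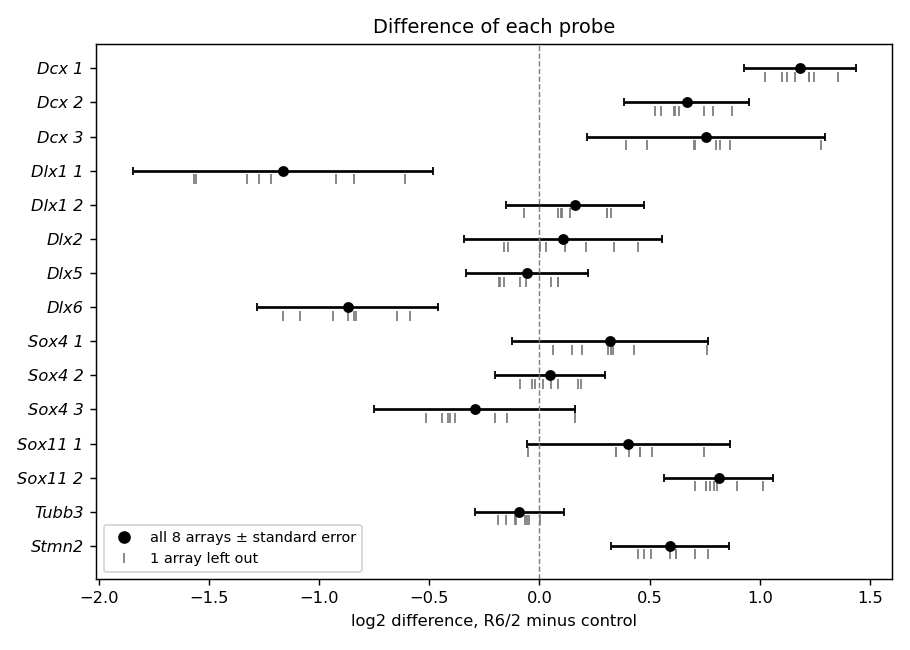
Log2 difference, R6/2 minus control, of each of the 15 probes (point) with its standard error (bar), and the same difference with each 1 of the 8 arrays left out (ticks below). All ticks of the 3 Dcx probes, of Sox4 1, of Sox11 2 and of Stmn2 lie above 0, all ticks of Dlx1 1 and Dlx6 lie below 0, and the other 7 probes have ticks on both sides.

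Control replicate 2 was the highest of all 8 arrays for 4 of the 9 genes, Dlx6, Sox4, Sox11 and Tubb3. In the same array the mean level of 9 tested oligodendrocyte markers was 1.87, against -1.04 to 0.36 in the other control arrays and -1.47 to -0.40 in R6/2 arrays. The part of this array's other RNA in the 4 genes was not tested, and the differences without it are those given for Sox4 and Sox11, -0.83 for Dlx6 and 0.00241 for Tubb3. Control replicate 1, the array with the fewest probes well above background, was the lowest for Sox11 and Tubb3 and the highest for Dlx5.

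The upstream sequence of Dcx is shown because Dcx had the largest positive difference and because the 250 bases before each of its 2 RefSeq starts hold TAATTA, the core that DLX and many other homeodomains read. The stretch before the upstream start is printed, and capitals mark TAATTA and TATAAA, a hexamer of many core promoters.
Dcx upstream, GRCm38.p6 chrX:143933220-143933469, minus strand: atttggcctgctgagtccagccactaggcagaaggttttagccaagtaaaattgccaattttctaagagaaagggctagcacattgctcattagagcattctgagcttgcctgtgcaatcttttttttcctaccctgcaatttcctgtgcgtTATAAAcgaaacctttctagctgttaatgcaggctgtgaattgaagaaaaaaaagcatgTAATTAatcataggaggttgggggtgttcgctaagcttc
TAATTA begins 39 bases and TATAAA 98 bases before this start. Before the other start, whose stretch is chrX:143933125-143933374 and overlaps the printed one, they begin at 134 and 193 bases. Searched on both strands, TAATTA occurs in 4.84% and TATAAA in 12.4% of the 32851 RefSeq promoter stretches of this length. ACAAAG, which Sox proteins read, occurs in 16.5% of them, and for Dcx it begins 8 bases before the other start and is not in the printed stretch. CAGCTG, an E-box, occurs in 13.0% of the stretches. RefSeq stretches were matched for 6 of the 9 genes, Dcx, Dlx1, Dlx2, Sox4, Sox11 and Tubb3, and Sox11 and Sox4 hold CAGCTG 210 and 211 bases before the start. A match is a description of the letters and not of binding.

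Genes that share other steps of neurogenesis were counted around these 9, with 1 probe per gene. No gene of any list passed limma's test over all probes tested, beside 0.00371% of all genes, and groups that did not overlap made up 2.16% of all genes with R6/2 higher and 2.57% with R6/2 lower. Of 24 progenitor and cell cycle genes, 20 were tested, 11 positive and 9 negative, and their median was 0.17. Fabp7, the lipid-binding protein of radial glia and astrocytes, read 2.40, 0.95, 0.64 and 0.44 in R6/2, against -0.83, -0.49, -0.43 and -1.10 in control. All R6/2 arrays lay above all control arrays, and the difference of +1.82 ± 0.43 had limma's adjusted p = 0.548. Tyms, which makes thymidylate for DNA synthesis, had +1.16 ± 0.39 (adjusted p = 0.637) and was dim, with 3 of 4 control arrays well above background. Mcm5, a subunit of the replicative helicase, had -0.65 ± 0.25 (adjusted p = 0.684) with groups that did not overlap. The proliferation marker Mki67 had a difference of -0.28 ± 0.44, and it was named after its value had been seen.

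Of 33 other genes of migrating neuroblasts and immature neurons, 27 were tested, 14 positive and 13 negative, and their median was 0.04. None of the 27 had groups that did not overlap. St8sia2, the enzyme that puts polysialic acid on NCAM in migrating neuroblasts, had -1.87 ± 0.67 (adjusted p = 0.664). It read -2.84, -1.26, 0.00466 and 0.04 in R6/2, against 0.56, -0.08, 1.56 and 1.38 in control, and R6/2 replicates 1 and 2 lay below all control arrays. Erbb4, a neuregulin receptor, had -1.05 ± 0.48 (adjusted p = 0.728), and Nrep, a protein of growing and regenerating neurons, had -0.60 ± 0.28 (adjusted p = 0.731). The gene Fezf1, the interneuron gene Calb2 and the chemokine receptor gene Ackr3 were not well above background on any array. Gap43 of the growth cone had -0.12 ± 0.19. The doublecortin-like kinase Dclk1 had -0.12 ± 0.23 at its brightest probe and -0.76 to -0.33 at its other 3. Both genes were named after their values had been seen.

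Of 23 subpallial transcription factors and partners of Dlx genes, 22 were tested, 11 positive and 11 negative, with a median of 0.01, and 3 had groups that did not overlap. Sp9, a zinc-finger factor of indirect-pathway MSNs and interneurons, had +0.65 ± 0.26 (adjusted p = 0.691), and Meis2, a homeodomain factor of striatal neurons, had -0.36 ± 0.18 (adjusted p = 0.741), both with groups that did not overlap. The third was Isl1, a factor of direct-pathway MSNs and cholinergic neurons, with +0.26 ± 0.18 (adjusted p = 0.795), which was named after its value had been seen. Gad1, the GABA-synthesising enzyme and a target of DLX proteins, had -0.45 ± 0.23 (adjusted p = 0.741). Nkx2-1, a factor of the medial ganglionic eminence, was not well above background on any array. Of 17 other Sox genes, 10 were tested, 6 positive and 4 negative, with a median of 0.12. Sox2 of neural stem cells had +1.20 ± 0.52 (adjusted p = 0.709), Sox10 of the oligodendrocyte lineage had -0.63 ± 0.32 (adjusted p = 0.743), and Sox9 of astrocytes had +0.81 ± 0.47 (adjusted p = 0.772). Sox2 and Sox9 were dim, each with 3 of 4 control arrays well above background.

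Of 19 other tubulins and stathmins, 18 were tested, 11 positive and 7 negative, with a median of 0.03. Tubd1, delta-tubulin of centrioles, had +1.22 ± 0.29 (adjusted p = 0.552) and groups that did not overlap, with 1 control array missing because its spot was marked as an outlier and 1 control array well above background. Stmn4, a neuronal stathmin, had -0.25 ± 0.17 (adjusted p = 0.796), and Tubb1, the beta-tubulin of platelets, had +0.75 ± 0.58 (adjusted p = 0.818) with 2 of 4 control arrays well above background. Of the 20 mature neuron genes, 6 were positive and 14 negative, with a median of -0.10, and 1 in each direction had groups that did not overlap. These were the synaptic vesicle gene Syp, with +0.34 ± 0.18 (adjusted p = 0.749) and named after its value had been seen, and the kinase subunit Camk2b, with -0.41 ± 0.19 (adjusted p = 0.733). The neurofilament gene Nefh had -1.11 ± 0.57 (adjusted p = 0.747) at its brighter probe and +0.18 at the other, and the syntaxin gene Stx1a had -0.59 ± 0.31 (adjusted p = 0.749).

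**Figure D4:**
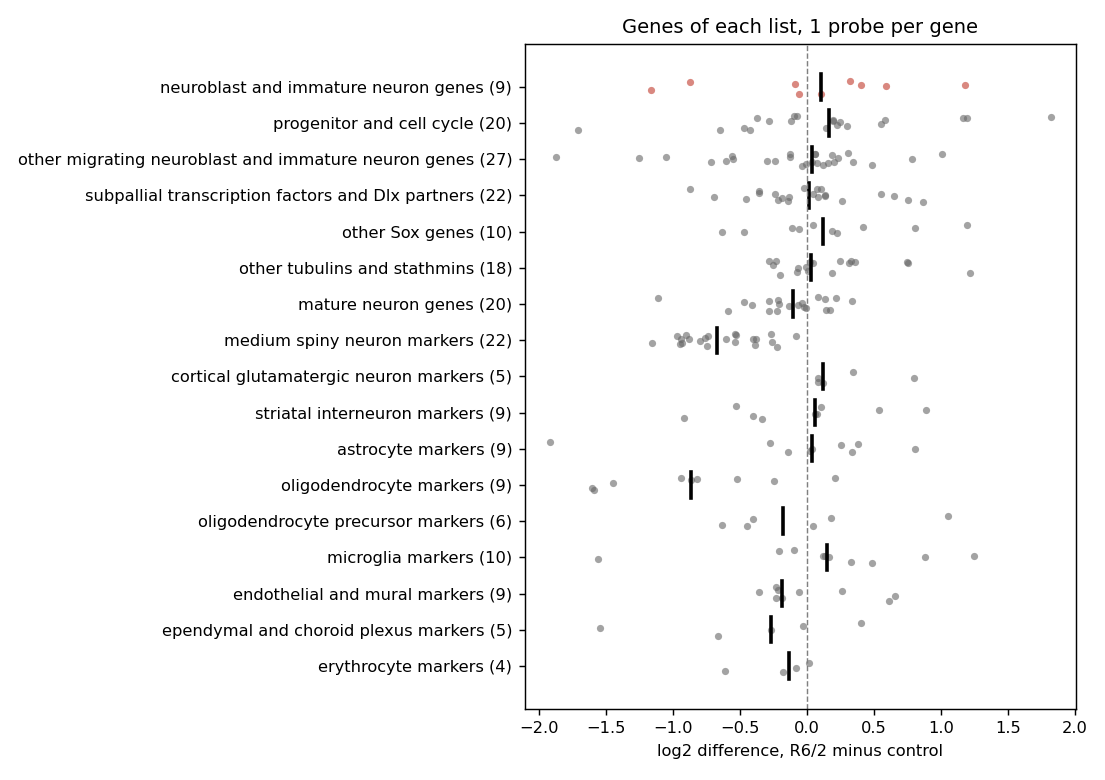
Log2 difference, R6/2 minus control, of the genes of each list with 1 probe per gene (points) and the list's median (bar), with the number of genes tested in brackets. The 9 genes of neuroblasts and immature neurons (red) and the other neurogenesis lists lie on both sides of 0, and all 22 MSN markers lie below 0.

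With 1 probe per gene, all 22 MSN markers were negative, around a median of -0.67. Groups did not overlap in 11 of 22, beside 2.57% of all genes with R6/2 lower. This list, which holds the sort gene Scn4b, was chosen with earlier results of these data known, so the count is a description. Foxp1 had -0.27 at its brightest probe and -0.34 to +0.26 at its other 3. Their mean level was 4.32 to 4.59 in R6/2 arrays, against 5.004 to 5.25 in control arrays, and their summed linear level relative to the 75th percentile was 886 to 997 in R6/2 and 1346 to 1544 in control. Arpp21, a cAMP-regulated phosphoprotein, had -0.90 ± 0.18 (adjusted p = 0.438) at its brightest probe and -0.24 to -0.15 at the other 2. Adcy5, the striatal adenylate cyclase, had -0.95 ± 0.23 and Penk, the enkephalin precursor, had -0.74 ± 0.18 (adjusted p = 0.552 each). The part of the lower MSN markers in the positive difference of Dcx was not tested.

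Markers of other cells that a sort can carry over lay on both sides of 0. Of 10 cortical glutamatergic markers 5 were tested, all positive, with a median of 0.12, led by Cux2 (+0.80), Tbr1 (+0.35) and Emx1 (+0.12), and Slc17a6 and Neurod6 were among those not well above background on any array. Of 12 interneuron markers 9 were tested, 5 positive and 4 negative, with a median of 0.06, led by Npy, Slc18a3 (-0.40) and Pvalb (+0.89). Groups did not overlap in 1 of the 9, Slc18a3, beside 2.57% of all genes with R6/2 lower. Npy was not well above background in any control array and had a difference of +0.54 ± 0.26 (limma's adjusted p = 0.735). Its groups overlapped, with R6/2 replicate 2 at -4.90 below control replicate 3 at -4.71. Each control array was then set at the higher of its lowest signal well above background and the signal of Npy itself. The R6/2 mean was 1.36-fold higher than this bound. Of 11 astrocyte markers 9 were tested, 6 positive and 3 negative, with a median of 0.04, led by Sox9 (+0.81), S100b (-1.92) and Aldh1l1 (+0.25).

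Of 10 oligodendrocyte markers 9 were tested, 1 positive and 8 negative, with a median of -0.87, with Mog at -0.94 and Cldn11 at -1.59. Their summed linear level was 12.5 to 20.7 in R6/2 and 12.7 to 68.7 in control, and without control replicate 2 their median difference was -0.23. Precursor markers had 3 positive and 3 negative of 6 tested, with a median of -0.18, led by Lhfpl3 (+1.05), Sox10 (-0.63) and Cspg4 (-0.45). Microglia markers had 7 positive and 3 negative of 10 tested, with a median of 0.15, led by Aif1 (-1.56), Itgam (-0.21) and Trem2 (+1.25). Groups did not overlap in 1 of the 10, Itgam, beside 2.57% of all genes with R6/2 lower. The other 2 probes of Itgam had -0.06 and +0.26. Endothelial and mural markers had 3 positive and 6 negative of 9 tested, with a median of -0.19, led by Cldn5 (+0.61), Kdr (-0.21) and Pecam1 (-0.23). Ependymal and choroid plexus markers had 1 positive and 4 negative of 5 tested, with a median of -0.27, led by Rsph1 (-1.54), Folr1 (+0.40) and Foxj1 (-0.66). Erythrocyte markers had 1 positive and 3 negative of 4 tested, with a median of -0.13, led by Alas2 (-0.61), Hba-a1 (-0.08) and Hbb-bt (-0.18). The adjusted p-values of all these marker genes in limma's test were above the threshold of 0.05. For the largest of these differences the standard errors were 1.19 (S100b), 1.07 (Cldn11), 0.85 (Aif1), 0.99 (Rsph1) and 1.13 (Trem2). Foxj1 (standard error 1.13) was well above background on 2 arrays of each group. Hbb-bt (standard error 1.31) was so on 3 R6/2 and 2 control arrays.

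For Dcx and Stmn2, the genes with the most similar pattern within the groups were sought among 15656 genes, as the smallest root mean square distance between levels centred on each group's mean over the 8 arrays. For Dcx, whose own root mean square deviation was 0.288, they were Csmd3 at 0.0851, Nelfe at 0.112, Fnbp4 at 0.120 and Trub1 and Eif2b2 at 0.125 each. Their differences between the groups ran from -0.17 in Nelfe to +0.14 in Fnbp4, beside +1.18 in Dcx. For Stmn2, with a deviation of 0.311, they were Cdh5 at 0.0825, Galnt11 at 0.0884, Arel1 at 0.106, Shtn1 at 0.107 and Castor2 at 0.114. All 5 had a negative difference, from -1.09 in Arel1 to -0.12 in Castor2, beside +0.59 in Stmn2. These distances describe 8 arrays that share labelling and slides, and they carry no test.

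The single probe that passed limma's test over all probes, A_55_P2128060, has no gene name in the table and belongs to none of these lists. It was well above background on 4 R6/2 arrays and on 0 control arrays, and, at an adjusted p = 0.0239, was higher in R6/2 by at least 55.7-fold, with the bound set as for Npy.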

How the data were processed

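Per the file headers, the deposited scanner files hold the intensity of each spot as Agilent Feature Extraction 10.7.3.1 gave it, background-subtracted and not scaled between arrays, with the software's quality marks and probe positions on mm9. The deposited series table adds the authors' log2 values, used only as an alternative. In R6/2 replicate 3, 1 garbled line was left out. After outlier spots had been dropped, log2 processed intensity was averaged over the spots of each probe, less the 75th percentile of the array's non-control probes.

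Probes well above background on at least 4 of 8 arrays (41394 of 55681) were fitted with limma 3.58.1 in R 4.3.3 (lmFit and eBayes, two-sided, R6/2 minus control), with Benjamini-Hochberg adjustment over all of them and a threshold of 0.05. The fit was tested on simulated data. Where a gene had several tested probes, the one of highest mean level stood for it. Names came from the accession (26762 probes), the symbol (3819), an older symbol (639) or, for 24461 probes, the file itself. Sequences are from the scanner files and from RefSeq (GRCm38.p6).

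The 9 genes and the lists were chosen with earlier results of these data known. Named genes are the 9, the 3 tested genes of each list with the smallest unadjusted p, the 5 nearest patterns of Dcx and Stmn2, and any probe called; some list genes are not reported here. Alternatives were the background correction, scaling, filter, probe choice, slide and replicate as blocks, an unpaired t-test and each array left out. The number of arrays limits the precision.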

Additional observations from a re-analysis of the deposited data

Results flagged for a closer look

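Among the 30 groups of 4 values checked over the 15 probes, 1 held an array far from the others. In Sox4 probe 3 (A_55_P2131899), R6/2 replicate 4 read -4.74 on the log2 scale, and the other R6/2 arrays read -3.04, -2.71 and -3.005. Its gap to the nearest array was 0.839 of the group's range, above Dixon's critical value for 4 samples. Chance flags about 1 in 20 groups. The array is the R6/2 array on the second slide, and it was not low in the other Sox4 probes, at 0.43 and 0.03.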

How the results depend on the processing

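The differences of the 9 genes were recomputed under 162 combinations of gene and alternative, and none moved by more than the spread between replicates. Many of these outcomes were fixed in advance. Leaving out 1 of 4 arrays cannot shift a group mean by that spread, and the slide block equals leaving out 1 array. The changed filters, the replicate block and 1 probe per gene return the main difference unchanged. The differences kept their sign in Dcx (0.87 to 1.36), Dlx1 (-1.57 to -0.50), Dlx6 (-1.16 to -0.59), Sox4 (0.02 to 0.76) and Stmn2 (0.45 to 0.77). The sign changed in 3 alternatives for Dlx2, 4 for Dlx5, 3 for Tubb3 and 1 for Sox11 (-0.05, without control replicate 1). For Dlx2 and Dlx5 these count the slide as a block and leaving out R6/2 replicate 4, which are the same fit. The median over the 9 genes ran from -0.11 to 0.35, and 4 to 6 of them were positive. Of 288 list medians, 9 moved by more than that spread. The progenitor and cell cycle median was -0.12 without R6/2 replicate 3 and -0.07 on probes well above background on all 8 arrays. The median of the other neuroblast genes was -0.11 without R6/2 replicate 3. That of the other Sox genes was -0.06 on probes well above background on all 8 arrays, -0.04 with the slide as a block and without R6/2 replicate 4, and 0.21 without R6/2 replicate 3. That of the precursor markers was 0.16 without control replicate 2 and -0.40 on probes well above background on all 8 arrays. The median over all probes ran from -0.01 to 0.09.

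The count of probes called, 1 in all, was 8 with normexp background and quantile scaling (5 of them higher in R6/2), 2 with quantile scaling, 7 among probes well above background on all 8 arrays (4 higher) and 5 with the mean of a gene's probes (4 higher). It was 0 with the slide as a block, 0 with an unpaired t-test and 0 with the replicate block, where 2409, 2795 and 2756 probes had an unadjusted p under 0.05, against 2904 without any of these. With 1 array left out it was 0 to 3, and the 3 came without control replicate 1. The cause was not tested. Arrays with the same replicate number did not deviate together over the probes tested (correlations from -0.04 to 0.02), and the main fit did not pair them. Whether same-numbered arrays were handled together was not tested. The control SD of the 15 probes reached 1.21, which limits what 4 arrays per group can resolve.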
